A study of Mus musculus with 10 samples.

Results

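Alpha-fetoprotein (Afp) was the gene by which spots of 4 mouse liver tumours were sorted, and the spots richest in it were compared with the spots poorest in it in the same section. Gene expression had been measured on Visium slides, on which barcoded spots capture polyadenylated RNA from a thin frozen section and count it as molecules with unique identifiers (UMIs). Each spot covers a patch of several cells, and a difference between spots can come from fewer cells of a type or from less RNA per cell, which cannot be told apart. A spot was used when it lay over tissue and held at least 2000 UMIs, or, in tumour NEJ146, for which no tissue call was used, at least 8000 UMIs. Within each section the 20% of spots with the most Afp UMIs per 10000 UMIs of the spot (Afp-high, the top quintile) and the 20% with the fewest (Afp-low, the bottom quintile) were taken. This gave 5202 Afp-high and 5202 Afp-low spots, 10404 in all, out of 26022 usable tumour spots and 34133 usable spots in the 7 tissues of the series. The study classed regions of its sections by morphology, with neoplasia kept apart from non-neoplastic tissue and from blood formation. Those classes were not used here. Tumour spots are therefore spots of tumour sections, and either side can hold non-neoplastic tissue.

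The tumours were NEJ146, with 4 adjacent sections, and NEJ634, NEJ687 and NEJ723, with 1 section each. All samples are labelled hepatoblastoma, and the study's text names these 4 tissues as tumours of ABC-Myc mice (Alb-Cre; CAG-Myc), in which Cre recombinase driven by the albumin promoter switches on MYC in the hepatocyte lineage. Both sides of every comparison therefore carry the same transgenes and come from the same animal, and no age is used here because the labels give none. The transgene can be on only in cells that have used the albumin promoter, and human MYC has no row in the count tables. NEJ146 gave 834 to 975 spots per side in its sections, NEJ634 gave 377, NEJ687 gave 794 and NEJ723 gave 435.

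Afp is the main plasma protein of the yolk sac and the fetal liver. Hepatocytes shut the gene off after birth, when its neighbour albumin takes over, and the zinc-finger and homeobox repressors Zbtb20 and Zhx2 are known to take part in that shut-off. Hepatoblastoma and other liver tumours of immature cells make Afp again, which is why it serves as a serum marker. Afp, albumin (Alb), afamin (Afm) and the vitamin D-binding protein (Gc) arose from one ancestral gene and lie on the same chromosome.

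On GRCm38.p6, Alb spans chr5:90460870-90476602, Afp chr5:90490714-90508907, Afm chr5:90518949-90553544 and Gc chr5:89417511-89457898. Alb ends 14111 bases before Afp begins, and Afp ends 10041 bases before Afm begins. The start regions of the 3 adjacent genes are shown because the genes lie side by side in one array and are all read in hepatocytes, while their levels given below went different ways. Each run holds 250 bases before and 50 bases after the RefSeq start on the plus strand, from chr5:90460620-90460919 (Alb), chr5:90490464-90490763 (Afp) and chr5:90518699-90518998 (Afm). Capitals mark the letters GTTANT directly followed by NNTTAAC (N is any base), the core bound by the hepatocyte factor HNF1, searched on both strands.
Alb: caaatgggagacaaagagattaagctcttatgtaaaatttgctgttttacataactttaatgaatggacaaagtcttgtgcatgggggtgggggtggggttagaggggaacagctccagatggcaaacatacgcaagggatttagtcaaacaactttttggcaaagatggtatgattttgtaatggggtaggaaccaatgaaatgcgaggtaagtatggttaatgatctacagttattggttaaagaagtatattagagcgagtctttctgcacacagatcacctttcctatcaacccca
Afp: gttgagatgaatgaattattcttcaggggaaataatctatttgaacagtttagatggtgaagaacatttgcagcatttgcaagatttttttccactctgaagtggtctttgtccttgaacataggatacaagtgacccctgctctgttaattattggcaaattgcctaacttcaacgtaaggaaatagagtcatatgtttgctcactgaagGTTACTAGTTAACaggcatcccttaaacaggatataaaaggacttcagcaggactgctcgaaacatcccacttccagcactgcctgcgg
Afm: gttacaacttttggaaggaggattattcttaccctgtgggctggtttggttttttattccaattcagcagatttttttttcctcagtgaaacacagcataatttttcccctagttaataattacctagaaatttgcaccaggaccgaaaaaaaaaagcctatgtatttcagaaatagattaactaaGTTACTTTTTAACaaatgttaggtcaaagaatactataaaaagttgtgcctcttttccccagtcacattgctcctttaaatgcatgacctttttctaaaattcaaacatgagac
The Afp window held GTTACTAGTTAAC from base -39 to base -27, and the Afm window held GTTACTTTTTAAC from base -64 to base -52, counted from the start. The Alb window held no run of these exact letters. This does not show that it lacks an HNF1 site, because sites that differ from these letters were not searched. Across 32851 promoter windows of the same length, 31 held the motif, which is 0.0944%.

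What was chosen by the rule was the Afp level itself, and it is given here as a description with no test. Levels are in CPM, the UMIs of a gene per 1000000 UMIs of all genes other than Afp on that side, and values of NEJ146 are means ± SD over its 4 adjacent sections. Afp stood at 400 ± 59.7 CPM in Afp-low and 4956 ± 1078 CPM in Afp-high spots of NEJ146. It went from 2219 to 6669 CPM in NEJ634, from 2652 to 5844 CPM in NEJ687 and from 2232 to 4476 CPM in NEJ723. The Afp-high sides were therefore alike in the 4 tumours, whereas the Afp-low side of NEJ146 lay far below the other 3, in which Afp-low spots were low only beside their neighbours and still held 2219 CPM or more. The ratio between the sides was 12.4 in NEJ146, 3.01 in NEJ634, 2.2 in NEJ687 and 2.0 in NEJ723.

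Members near the limits differed little from the spots just outside. In NEJ723 the highest Afp-low spot held 25.4 and the next spot above it 25.5 Afp UMIs per 10000. The lowest Afp-high spot of NEJ723 and the spot just below it both held 38.8. In section A of NEJ146 the Afp-low side ended at 8.89, with 8.93 in the next spot, and the Afp-high side began at 31.8. The upper limit was 1.52 times the lower in NEJ723, 1.57 times in NEJ687, 2.0 times in NEJ634 and 3.56 to 5.02 times in the sections of NEJ146, so the middle of the range that was left out was narrow in NEJ723 and NEJ687.

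Afp-high and Afp-low spots lay in patches. In NEJ146, 71.5% of the array neighbours of Afp-low spots were Afp-low as well, with a range of 70.3% to 72.3% over sections, and 66.05% of the neighbours of Afp-high spots were Afp-high. NEJ634 gave 53.1% and 53.3%, NEJ687 gave 37.9% and 43.3%, and NEJ723 gave 34.7% and 35.9%, where a side makes up 20% of all spots. The share of neighbours on the same side exceeded the share of that side by 29.5 ± 14.9 percentage points (SD over 4 tumours), above 0 in 4 of 4 tumours. These shares are a description with no test, because they are made of the Afp values by which the spots were chosen. The sides also differed in how many of their spots had under 6 usable neighbours. Such spots lie at an edge or beside spots that were not used. The share was 6.87% to 9.81% of Afp-low and 12.4% to 26.02% of Afp-high spots in the sections of NEJ146. Among all usable spots of these sections it was 9.64% to 16.5%, and in section B the Afp-high share (12.4%) lay below that of all spots (16.5%). The Afp-low and Afp-high shares were 25.7% and 4.51% in NEJ634, 12.1% and 7.43% in NEJ687, and 27.6% and 9.43% in NEJ723. Such spots were thus more frequent on the Afp-high side in NEJ146 and on the Afp-low side in the other 3 tumours. Their part in the results below was not tested.

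**Figure D1:**
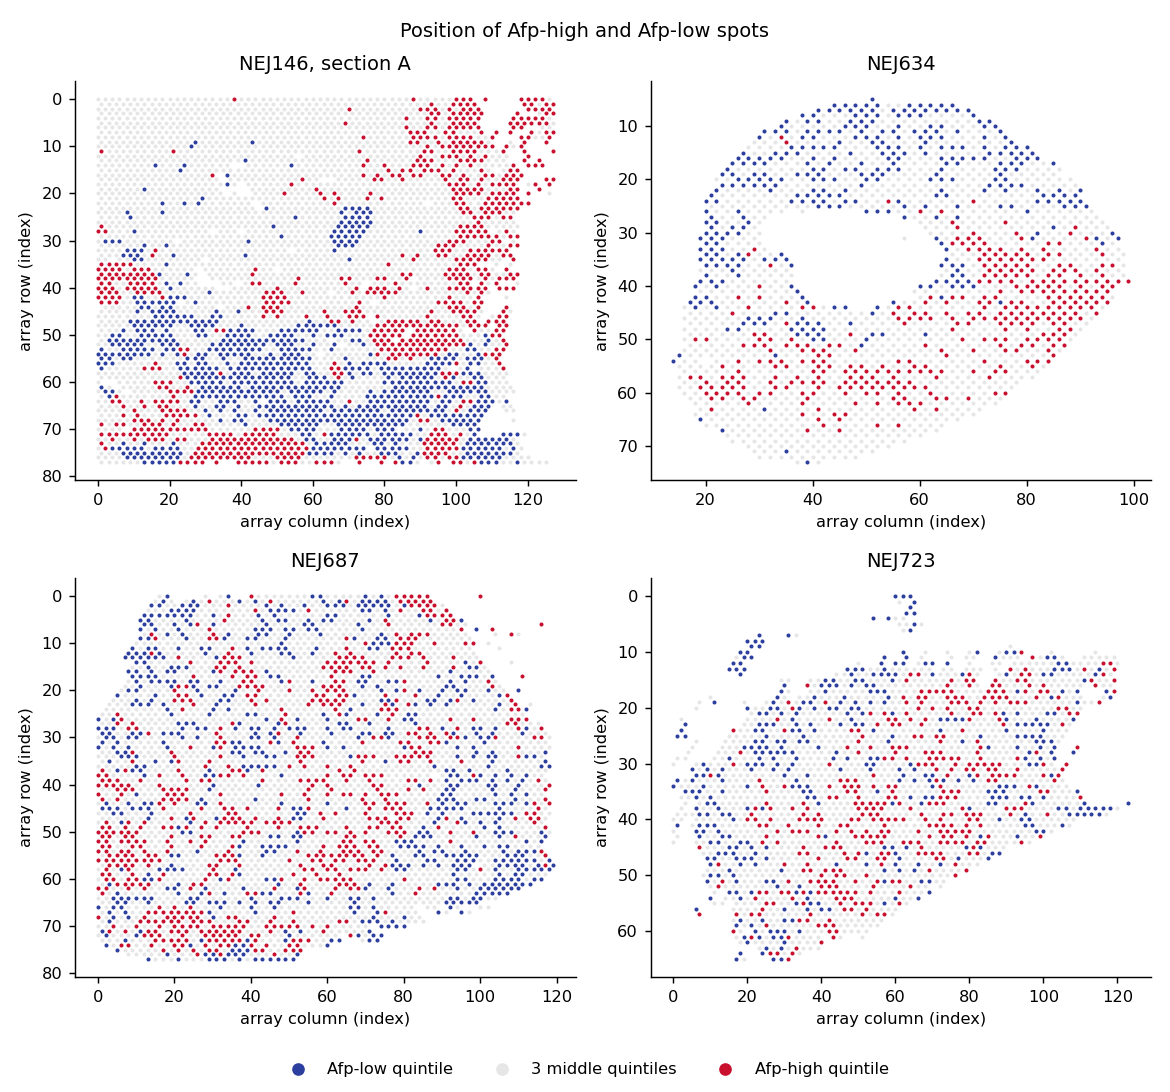
Position of each usable spot on the capture array (array row against array column, both as index) in section A of NEJ146 and in NEJ634, NEJ687 and NEJ723, with Afp-low spots in blue, Afp-high spots in red and the 3 middle quintiles in grey. Both sides form compact patches in NEJ146, opposite parts of the section in NEJ634 and smaller patches in NEJ687 and NEJ723.

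The surroundings of a spot gave the same description. When spots were ranked by the mean Afp of their adjacent spots, with the spot itself left out, the spot's own Afp went from 527 CPM in the bottom quintile to 4619 CPM in the top quintile of NEJ146. The same ranking gave 2594 and 6173 CPM in NEJ634, 3121 and 5213 CPM in NEJ687, and 2625 and 3948 CPM in NEJ723. Neighbouring spots thus held like levels of Afp in all 4 tumours, most so in NEJ146. Under counting error alone the variance of Afp counts equals its Poisson value, and it was 18.9 to 40.5 times that value in NEJ146, 18.6 times in NEJ634, 4.63 times in NEJ687 and 4.03 times in NEJ723. These values too are a description with no test, because Afp itself set the sides.

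The depth of the spots moved with Afp in NEJ146. Median UMIs per spot ran from 22792.5 to 30553 in the Afp-low sides of its 4 sections and from 14656.5 to 17572 in the Afp-high sides. They were 30667 and 30375 in NEJ634, 12458.5 and 12844.5 in NEJ687, and 18345 and 21595 in NEJ723. The mean log2 ratio of Afp-high over Afp-low medians was -0.12 ± 0.43 (SD, 4 tumours), above 0 in 2 of 4, which is a description with no test, because the UMIs of a spot are the denominator of its Afp level. Each side held between 7772164 and 30307027 UMIs in all, so that counting error was small for all but rare genes. Intervals given below for the tumours with 1 section are exact 95% Poisson intervals, which cover counting error only.

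Genes were tested on the 8 sums of counts, 1 Afp-high and 1 Afp-low sum per tumour, with NEJ146 entering as the mean of its sections and the tumour as a block. Of 12852 genes tested, edgeR's quasi-likelihood test called 10 lower in Afp-high spots (0.0778%) and 0 higher (0%) at a Benjamini-Hochberg adjusted p below 0.05. Without adjustment, 977 genes were higher and 1269 lower at p below 0.05. DESeq2, run as an alternative, called 92 genes higher (0.745%) and 180 lower (1.46%), among them all 10 called by edgeR, with shares taken over the 12353 genes to which it gave an adjusted p. In direction alone, 1386 genes (10.8%) were higher and 1685 (13.1%) lower in Afp-high spots of all 4 tumours, counting only genes with at least 1 UMI in every tumour.

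Of the 10 genes called lower, 9 are described here, namely Ugt3a2, Rdh16, Gm3776, Ido2, Orm2, Akr1c20, Cyp2c54, Mug1 and Gstm6. They are given because they were few, and only Mug1 also met the rule for named genes, which asked for a mean of at least 10 CPM and the same sign in every tumour and section. Most encode enzymes with which mature hepatocytes handle drugs, hormones and amino acids. Ugt3a2 transfers sugars to lipophilic compounds, and Rdh16 oxidises retinol. Ido2 breaks down tryptophan, Akr1c20 is an aldo-keto reductase, Cyp2c54 a cytochrome P450 and Gstm6 a glutathione transferase, while Orm2 and Mug1 are secreted into plasma, Mug1 as a protease inhibitor.

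Mug1 was the most abundant of them. Its level was 226 ± 32.3 CPM in Afp-low and 34.1 ± 7.67 CPM in Afp-high spots of NEJ146. In NEJ634 it was 117 and 9.69 CPM, in NEJ687 77.8 and 15.4 CPM, and in NEJ723 1.16 and 0.422 CPM. Afp-high spots were thus the lower side in every tumour, by a log2 ratio of -2.74 ± 0.20 (SD, 4 sections) in NEJ146, -3.59 (interval -3.89 to -3.32) in NEJ634, -2.33 (-2.58 to -2.10) in NEJ687 and -1.37 (-3.61 to 0.38) in NEJ723. The edgeR log2 fold change was -2.88 ± 0.25 (SE, adjusted p = 0.0473). Mug1 and Mug2 are close copies, so reads could be split between them, and Mug2 is described with the genes per doubling of Afp. In that fit, introduced below, Mug1 (edgeR, -1.07 ± 0.29 SE, adjusted p = 0.107) and Orm2 (adjusted p = 0.104) were not called, while the other 8 of the 10 were.

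In Ugt3a2 and Rdh16 the drop lay in NEJ146, NEJ634 and NEJ687, and NEJ723 measured almost none of either gene. Ugt3a2 went from 23.2 ± 2.35 to 2.35 ± 0.369 CPM in NEJ146, with 8.69 and 0.680 CPM in NEJ634, 5.36 and 0.806 CPM in NEJ687 and 0.129 CPM against none in NEJ723. Rdh16 had 23.3 ± 2.91 and 2.58 ± 0.590 CPM in NEJ146, 7.68 and 0.425 CPM in NEJ634, 3.46 and 0.448 CPM in NEJ687, and 0.258 and 0.106 CPM in NEJ723, with an edgeR log2 fold change of -3.38 ± 0.25 (SE, adjusted p = 0.0171).

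The other 6 fell by log2 fold changes between -2.54 (Gstm6) and -3.20 (Ido2), with edgeR adjusted p from 0.0171 (Gm3776) to 0.0473 (Gstm6). Orm2 had 16.5 ± 2.92 and 2.21 ± 0.344 CPM in NEJ146, 10.7 and 0.85 CPM in NEJ634, 26.4 and 4.75 CPM in NEJ687, and no UMI on either side of NEJ723. Akr1c20 went from 43.2 ± 0.790 to 6.32 ± 1.39 CPM in NEJ146, from 14.4 to 2.38 CPM in NEJ634 and from 4.06 to 0.896 CPM in NEJ687, and had 0.129 and 0.211 CPM in NEJ723. Cyp2c54 went from 37.0 ± 5.36 to 4.25 ± 1.57 CPM, from 9.19 to 1.27 CPM and from 3.72 to 1.07 CPM in the same 3 tumours, and from 0.129 CPM to none in NEJ723. Orm2, Cyp2c54, Akr1c20 and Gstm6 all have near-identical copies between which reads could be split. The calls depended on which tumours entered: without NEJ634 edgeR called 0 genes (566 higher and 723 lower at unadjusted p), without NEJ146 it called none of the 10, of which Ugt3a2, Rdh16 and Ido2 then fell below the filter on low counts, and without NEJ687 it called 27 lower, 9 of them among the 10. Over 18 to 24 alternatives each, the log2 fold change of all 10 stayed below 0 and 10 (Mug1) to 18 (Ugt3a2) of them made the call.

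**Figure D2:**
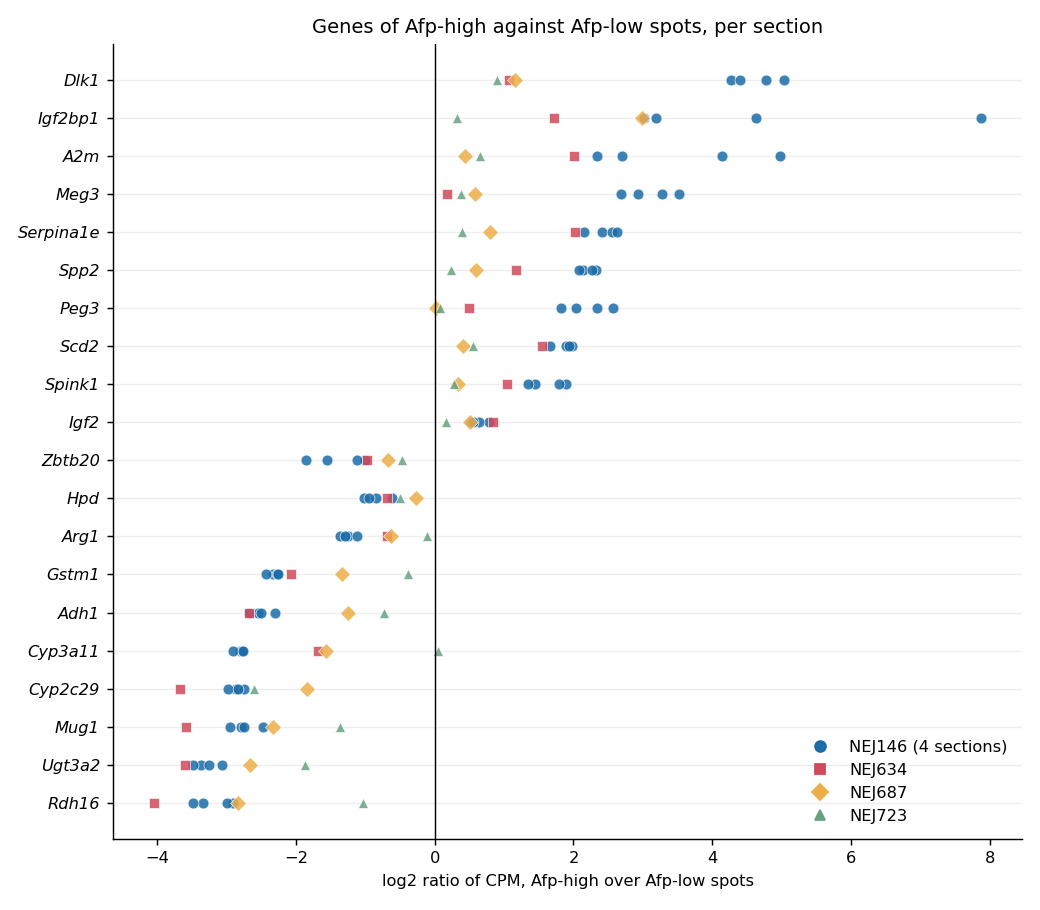
Log2 ratio of CPM in Afp-high over Afp-low spots for 20 genes, with 1 point per section (4 circles for NEJ146; a square, a diamond and a triangle for NEJ634, NEJ687 and NEJ723) and a line at 0. The points of Dlk1 lie between 0.90 and 5.03 and those of Mug1 between -3.59 and -1.37, and the Rdh16 point of NEJ723 rests on 2 and 1 UMIs.

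Dlk1 is described next, as the gene ranked first among those that rose in a second fit given below. The ranking took only called genes with a name of their own, one sign in every section and a mean of at least 10 CPM. Dlk1 encodes a transmembrane protein of hepatoblasts, the fetal liver progenitors, and lies in an imprinted region with the noncoding RNA gene Meg3. In NEJ146 it had 4.14 ± 1.68 CPM in Afp-low and 111 ± 68.7 CPM in Afp-high spots. It had 59.0 and 124 CPM in NEJ634, 28.1 and 62.9 CPM in NEJ687, and 83.4 and 156 CPM in NEJ723. Dlk1 was thus higher on the Afp-high side of every tumour and every section, as its choice required, 26.9-fold in NEJ146 and 1.87-fold to 2.24-fold in the other tumours. NEJ146 thus stood far from the rest, and edgeR gave a log2 fold change of 1.79 ± 0.66 (SE) with adjusted p = 0.26 over the 4 tumours. When NEJ146 was left out, Dlk1 was the only gene called, with a log2 fold change of 1.09 and adjusted p = 0.0197.

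The tumours differed in how far apart their 2 sides lay in Afp itself. A second fit, chosen after these data had been seen, therefore replaced the side by the log2 Afp level of each sum, so that a coefficient is the log2 change of a gene per doubling of Afp. With edgeR it called 649 genes rising (5.05%) and 880 falling (6.85%). Without NEJ146 it called 183 rising and 172 falling, and 72 of the 649 and 132 of the 880 kept their call. Over all genes 219 and 392 kept it without NEJ687, 417 and 593 without NEJ723, and 606 and 832 without NEJ634, so that over all genes calls were lost most often without NEJ146 and next without NEJ687. NEJ146 did not enter the fit that called the 183 and the 172. The form of that fit was, however, chosen after the data of NEJ146 had been seen. In NEJ146, 167 of the 183 (91.3%) were higher in Afp-high spots of all 4 sections, against 69.1% of all 6187 genes whose coefficient was positive in the other 3 tumours. Of the 172, 157 (91.3%) were lower in all 4 sections, against 30.7% of 6704 genes with a negative coefficient. Their median log2 ratios in NEJ146 were 0.56 and -1.11, beside 0.34 and 0.04 for all genes with a positive and with a negative coefficient. The wider sets also hold genes without a call, and these shares and medians are a description with no test. "Rose" and "fell" refer from here on to this fit, unless the test is named. Counts of list members below are to be read beside the shares of all genes, 5.05% rising and 6.85% falling. For direction alone these shares are 10.8% higher and 13.1% lower in all 4 tumours. Counts from the fit without NEJ146 are to be read beside its 183 rising and 172 falling of 12891 genes.

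Dlk1 rose by 1.13 ± 0.09 (SE) on the log2 scale per doubling of Afp (edgeR, adjusted p = 0.00346), and by 0.85 without NEJ146 (adjusted p = 0.0015). The fetal and oncofetal list held 19 genes, of which 17 passed the filter on low counts and Igf2bp2 and Hmga2 did not. Of the 17, 9 rose (Dlk1, Gpc3, Igf2bp1, Igf2bp3, Meg3, Mest, Peg3, Sall4 and Spink1) and none fell per doubling, 7 were higher in all 4 tumours, none was lower in all 4, and none was called between the sides by edgeR. Without NEJ146, 4 of the 17 rose, and Dlk1 and Spink1 of the 9 kept their call, beside 72 of 649 over all genes. Without NEJ687 and NEJ723, 6 and 7 of the 9 kept it, beside 219 and 417 of the 649. The median log2 ratio of the list was 1.46 in NEJ146, 0.24 in NEJ634, and 0.18 in both NEJ687 and NEJ723, beside medians of all tested genes of 0.20, -0.08, -0.02 and -0.06. The list was chosen with earlier results of these data known, and its direction is therefore no independent evidence.

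Spink1, a trypsin inhibitor that many liver tumours secrete, had 58.3 ± 9.96 CPM in Afp-low and 185 ± 62.3 CPM in Afp-high spots of NEJ146. It had 208 and 429 CPM in NEJ634, 296 and 375 CPM in NEJ687, and 688 and 835 CPM in NEJ723. It rose by 0.44 ± 0.05 (SE) per doubling (edgeR, adjusted p = 0.00367), and the intervals of its log2 ratio lay above 0 in the 3 tumours with 1 section. Across tumours, however, the Afp-low spots of NEJ723 held more Spink1 than the Afp-high spots of every other tumour. Igf2bp1, an RNA-binding protein of fetal tissues, was near 0 in Afp-low spots of NEJ146 (0.0824 ± 0.0566 CPM) and of NEJ687 (0.0864 CPM) and reached 2.39 ± 1.57 and 0.985 CPM in Afp-high spots. It had 3.67 and 12.2 CPM in NEJ634 and 13.9 and 17.4 CPM in NEJ723, and rose by 1.08 ± 0.17 (SE) per doubling (edgeR, adjusted p = 0.00982), a call lost without NEJ146 (adjusted p = 0.0886).

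Meg3, the imprinted neighbour of Dlk1, had 4.03 ± 0.681 and 36.4 ± 14.6 CPM on the 2 sides of NEJ146. Its levels were 36.1 and 40.8 CPM in NEJ634, 29.9 and 45.0 CPM in NEJ687, and 56.6 and 73.4 CPM in NEJ723. It rose by 0.66 ± 0.12 (SE) per doubling (edgeR, adjusted p = 0.033), but without NEJ146 the coefficient was 0.31 with adjusted p = 0.0911, and the call was also lost without NEJ687 (adjusted p = 0.0741) or NEJ723 (adjusted p = 0.0671). Igf2, the fetal insulin-like growth factor, was higher on the Afp-high side of all 4 tumours, at 68.8 ± 15.2 and 107 ± 28.1 CPM in NEJ146, 194 and 348 CPM in NEJ634, 345 and 490 CPM in NEJ687, and 376 and 419 CPM in NEJ723. It was not called by edgeR between the sides (log2 fold change 0.51 ± 0.12 SE, adjusted p = 0.154) or per doubling (adjusted p = 0.134), and was called by DESeq2 (adjusted p = 0.0246). Peg3, an imprinted zinc-finger gene, had 19.99 ± 2.59 and 92.2 ± 18.4 CPM in NEJ146 and 112 and 159 CPM in NEJ634, but 128 and 130 CPM in NEJ687 and 199 and 209 CPM in NEJ723.

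H19, the imprinted noncoding RNA next to Igf2, did not go with Afp in one direction. It had 4870 ± 334 and 6012 ± 522 CPM in NEJ146, 4411 and 782 CPM in NEJ634, 8755 and 8907 CPM in NEJ687, and 18.1 and 9.07 CPM in NEJ723. Cdkn1c, the imprinted cell cycle inhibitor of the same chromosome arm, had 12.7 ± 1.45 and 91.5 ± 9.97 CPM in NEJ146, 27.7 and 4.59 CPM in NEJ634, 44.3 and 63.6 CPM in NEJ687, and 0.516 and 0.528 CPM in NEJ723. In NEJ634, H19 and Cdkn1c were thus lower where Afp was high, by log2 ratios of -2.50 (interval -2.53 to -2.46) and -2.58 (-3.04 to -2.18). Epcam, a surface protein of hepatic progenitors and duct cells, was mixed as well, at 9.25 ± 0.396 and 15.6 ± 9.59 CPM in NEJ146, 57.0 and 48.7 CPM in NEJ634, 4.50 and 1.70 CPM in NEJ687, and 43.6 and 86.7 CPM in NEJ723. Cd24a, another surface protein of progenitors, had 22.2 ± 1.87 and 70.1 ± 11.7 CPM in NEJ146, 64.4 and 26.9 CPM in NEJ634, 147 and 135 CPM in NEJ687, and 73.6 and 48.3 CPM in NEJ723, and so was higher on the Afp-high side of NEJ146 alone.

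The genes next to Afp did not share its pattern. Alb had 15916 ± 2826 CPM in Afp-low and 8874 ± 1748 CPM in Afp-high spots of NEJ146. It had 11941 and 18692 CPM in NEJ634, 8709 and 9776 CPM in NEJ687, and 6018 and 9305 CPM in NEJ723. Afp-high spots therefore held less Alb than Afp-low spots in NEJ146 and more in the other 3 tumours, and edgeR gave a log2 fold change of 0.15 ± 0.32 (SE, adjusted p = 0.845). Afm, the nearer gene downstream, had 82.3 ± 10.2 and 53.8 ± 4.68 CPM in NEJ146, 77.8 and 59.0 CPM in NEJ634, 54.8 and 58.3 CPM in NEJ687, and 26.7 and 31.1 CPM in NEJ723. Gc had 2652 ± 286 and 2056 ± 227 CPM in NEJ146, 2362 and 3063 CPM in NEJ634, 2705 and 2780 CPM in NEJ687, and 2357 and 2690 CPM in NEJ723. None of the 3 passed either test.

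Zbtb20, one of the known repressors of Afp, was lower where Afp was high in all 4 tumours. It had 15.0 ± 1.48 and 5.90 ± 1.70 CPM in NEJ146, 14.0 and 7.14 CPM in NEJ634, 7.17 and 4.48 CPM in NEJ687, and 5.42 and 3.90 CPM in NEJ723, where the interval of the log2 ratio held 0 (-1.15 to 0.20). Zbtb20 fell by 0.45 ± 0.05 (SE) per doubling of Afp (edgeR, adjusted p = 0.00346), and did so in each fit that left out 1 tumour. Between the sides edgeR gave -0.94 ± 0.19 (SE) with adjusted p = 0.153, and DESeq2 adjusted p = 0.0364. Zhx2, the other one, had 3.01 ± 0.0695 and 1.60 ± 0.238 CPM in NEJ146, 2.34 and 2.04 CPM in NEJ634, 2.59 and 2.06 CPM in NEJ687, and 1.68 and 3.48 CPM in NEJ723, with no call (edgeR, adjusted p = 0.298 per doubling).

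Of 16 hepatocyte transcription factors tested, 3 fell per doubling (the bile acid receptor Nr1h4, the xenobiotic receptor Nr1i2 and Zbtb20) and none rose. Hnf4a, the master regulator of hepatocyte genes, was nearly even, at 122 ± 1.63 and 148 ± 10.9 CPM in NEJ146, 125 and 120 CPM in NEJ634, 186 and 172 CPM in NEJ687, and 126 and 115 CPM in NEJ723 (edgeR, log2 fold change -0.02 ± 0.07 SE, adjusted p = 0.927). Nr1i2, which switches on Cyp3a and Cyp2b genes, had 44.5 ± 3.04 and 33.8 ± 2.47 CPM in NEJ146, 45.8 and 30.6 CPM in NEJ634, 58.5 and 47.9 CPM in NEJ687, and 46.7 and 35.7 CPM in NEJ723. It fell by 0.20 on the log2 scale per doubling (edgeR, SE 0.03, adjusted p = 0.012), a call lost without NEJ687 (adjusted p = 0.0507), and by 0.30 without NEJ146 (adjusted p = 0.0336). The call of Nr1h4 was lost without NEJ146 (adjusted p = 0.152), NEJ687 (adjusted p = 0.064) or NEJ723 (adjusted p = 0.0688).

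Several enzymes of mature hepatocytes fell. In adult liver, pericentral hepatocytes carry Cyp2e1, Cyp3a11 and glutamine synthetase (Glul), and periportal ones carry the enzymes of urea and glucose synthesis. Of 10 pericentral enzymes, 4 fell per doubling (Cyp3a11, Oat, Rhbg and Slc1a2) and none rose, with median log2 ratios of -2.14, -1.77, 0.19 and -0.31 in NEJ146, NEJ634, NEJ687 and NEJ723. Of 12 periportal enzymes, 6 fell (Arg1, Asl, Ass1, Hal, Otc and Uroc1), none rose and 9 were lower in all 4 tumours, with medians of -0.48, -0.81, -0.34 and -0.15. Without NEJ146, Oat of the 4 and Hal and Otc of the 6 kept their call, beside 132 of 880 over all genes that fell. Without NEJ687, 3 of each list kept it, beside 392 of the 880. The 2 zones of the lobule thus both had members that fell, and neither list had a member called between the sides by edgeR.

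Cyp3a11, a drug-metabolising P450 and the most abundant pericentral enzyme here, had 4986 ± 667 and 709 ± 101 CPM in NEJ146, 1017 and 316 CPM in NEJ634, and 1510 and 511 CPM in NEJ687. NEJ723 had 75.0 and 77.9 CPM, a log2 ratio of 0.05 (interval -0.11 to 0.21), and so did not share the difference. Cyp3a11 fell by 0.86 on the log2 scale per doubling (edgeR, SE 0.13, adjusted p = 0.0265), a call lost without NEJ146 (adjusted p = 0.357) and without NEJ634 (adjusted p = 0.0837). Cyp2e1 had 528 ± 61.1 and 106 ± 9.65 CPM in NEJ146 and 132 and 17.3 CPM in NEJ634, against 51.3 and 59.7 CPM in NEJ687 and 1.29 and 0.950 CPM in NEJ723. Glul went different ways, at 88.2 ± 6.11 and 112 ± 7.16 CPM in NEJ146, 94.3 and 58.5 CPM in NEJ634, 101 and 152 CPM in NEJ687, and 38.6 and 32.6 CPM in NEJ723 (edgeR, adjusted p = 0.99).

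Among periportal enzymes, Arg1, the arginase that releases urea, had 617 ± 24.5 and 258 ± 20.2 CPM in NEJ146, 414 and 256 CPM in NEJ634, 472 and 304 CPM in NEJ687, and 286 and 265 CPM in NEJ723. It was lower on the Afp-high side of every tumour, and fell by 0.40 per doubling (edgeR, SE 0.04, adjusted p = 0.00278), a call lost without NEJ146 (adjusted p = 0.0706). Pck1, which commits carbon to glucose synthesis, had 702 ± 23.3 and 136 ± 25.5 CPM in NEJ146, 514 and 32.5 CPM in NEJ634, 446 and 166 CPM in NEJ687, and 13.4 and 8.65 CPM in NEJ723, without a call (edgeR, adjusted p = 0.162 per doubling). Wnt/beta-catenin targets were few in UMIs: of 7 tested, only Nkd1, a Wnt antagonist, fell per doubling (edgeR, adjusted p = 0.046), a call lost in every fit that left out 1 tumour (adjusted p from 0.0544 to 0.362), and the medians were -0.84, -0.94, 1.03 and -1.03, with NEJ687 alone above 0.

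A wider set of genes was named after its values had been seen, as the largest coefficients per doubling. Only called genes with the same sign in every tumour and section and a mean of at least 10 CPM were ranked. Their shared direction over tumours and sections was thus fixed by the choice. The genes that fell most beside those above included Cyp4a10, Cyp2j5, Slco1a4, Adh1, Cyp2c55, Mug2, Mbl2, Ces1g, Akr1c14, Cyp2b10, Gstm1 and Ces1b, with coefficients from -1.04 (Cyp4a10) to -0.78 (Ces1b). Without NEJ146 the call was lost for Adh1, Cyp2c55, Gstm1 and Ces1b (edgeR, adjusted p from 0.0906 to 0.183). It was lost both without NEJ687 and without NEJ723 for Cyp4a10, Slco1a4, Adh1, Cyp2c55, Mug2 and Ces1b (adjusted p from 0.0703 to 0.0933). The coefficients themselves were over 1.5 times as large without NEJ146 in Cyp4a10 (-1.83), Slco1a4 (-1.79), Mug2 (-1.41), Adh1 (-1.35), Cyp2b10 (-1.35), Cyp2c55 (-1.34) and Ces1b (-1.25). Gstm1, a glutathione transferase, had 2617 ± 220 and 523 ± 37.1 CPM in NEJ146, 614 and 146 CPM in NEJ634, 1090 and 431 CPM in NEJ687, and 212 and 162 CPM in NEJ723. Adh1, the liver's alcohol dehydrogenase, had 730 ± 77.1 and 129 ± 17.5 CPM in NEJ146, 241 and 37.8 CPM in NEJ634, 163 and 68.8 CPM in NEJ687, and 18.2 and 10.97 CPM in NEJ723. Mbl2, the mannose-binding lectin of plasma, had the smallest adjusted p of those named (edgeR, 0.00084, coefficient -0.82 ± 0.04 SE), at 103 ± 14.3 and 16.2 ± 2.95 CPM in NEJ146, 34.5 and 10.7 CPM in NEJ634, 42.5 and 21.4 CPM in NEJ687, and 5.16 and 3.69 CPM in NEJ723.

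The genes that rose most under the same choice included A2m, Cdhr2, Serpina1e, Krt20, Bex2, Obsl1, Tmem27, Car7, Spp2 and Espn beside Dlk1 and Meg3. Of these only Dlk1, Tmem27 and Spp2 kept their call without NEJ146. A2m, a plasma protease inhibitor related to Mug1, had 3.33 ± 0.270 and 51.3 ± 41.6 CPM in NEJ146, 114 and 457 CPM in NEJ634, 55.8 and 75.4 CPM in NEJ687, and 221 and 347 CPM in NEJ723. It rose by 1.02 ± 0.11 (SE) per doubling (edgeR, adjusted p = 0.00743), a call lost without NEJ146 (adjusted p = 0.223), while its relative Mug2 fell by 0.85 (edgeR, SE 0.14, adjusted p = 0.0314), a call lost without NEJ687 (adjusted p = 0.0848) or NEJ723 (adjusted p = 0.0709), and by 1.41 without NEJ146 (adjusted p = 0.0316). Serpina1e, a copy of the alpha-1-antitrypsin gene, had 39.5 ± 4.08 and 216 ± 43.2 CPM in NEJ146, 273 and 1104 CPM in NEJ634, 417 and 723 CPM in NEJ687, and 666 and 878 CPM in NEJ723. It rose by 0.72 ± 0.12 (SE) per doubling (edgeR, adjusted p = 0.0293), without a call when NEJ146 (adjusted p = 0.214), NEJ687 (adjusted p = 0.0698) or NEJ723 (adjusted p = 0.0533) was left out. Spp2, a secreted phosphoprotein of liver, had 62.7 ± 10.6 and 290 ± 60.1 CPM in NEJ146, 193 and 432 CPM in NEJ634, 380 and 576 CPM in NEJ687, and 408 and 482 CPM in NEJ723, and rose by 0.57 ± 0.05 (SE, edgeR adjusted p = 0.00182) with a call in every fit that left out 1 tumour.

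Secreted hepatocyte proteins as a list did not fall with the enzymes, though in NEJ146 the list median lay below that of all genes. Of 28 tested, 14 were higher and 1 lower in Afp-high spots of all 4 tumours, where 10.8% of all genes were higher and 13.1% lower. Serpina1e rose and Apoc1 and Apoc3 fell per doubling. The medians were 0.12, 0.30, 0.14 and 0.17, beside 0.20, -0.08, -0.02 and -0.06 for all genes tested. Without NEJ146, 13 of the 28 rose and none fell, where 183 of 12891 genes rose and 172 fell over all genes. None of the 3 above kept its call without NEJ146. Ttr, which carries thyroxine, had 5844 ± 674 and 6190 ± 399 CPM in NEJ146, 7570 and 14523 CPM in NEJ634, 5759 and 7879 CPM in NEJ687, and 7772 and 8094 CPM in NEJ723, with no call (edgeR, adjusted p = 0.657 per doubling). Apoc3, an apolipoprotein that slows triglyceride clearance, had 2421 ± 305 and 503 ± 80.3 CPM in NEJ146, 1058 and 397 CPM in NEJ634, 767 and 541 CPM in NEJ687, but 294 and 313 CPM in NEJ723. Copies of Serpina1 are nearly identical and reads could be split among them. Serpina1c, another copy, was nearly even in every tumour, at 770 ± 74.1 and 754 ± 87.9 CPM in NEJ146, 1051 and 962 CPM in NEJ634, 1135 and 1119 CPM in NEJ687, and 1163 and 1313 CPM in NEJ723. Of 14 acute phase proteins, Orm2 was called lower by edgeR, and Fgl1 and Hp fell per doubling, both without a call when NEJ146 or NEJ687 was left out, and Fgl1 also without NEJ634. Without NEJ146, 3 of the 14 fell, with neither Fgl1 nor Hp among them.

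**Figure D3:**
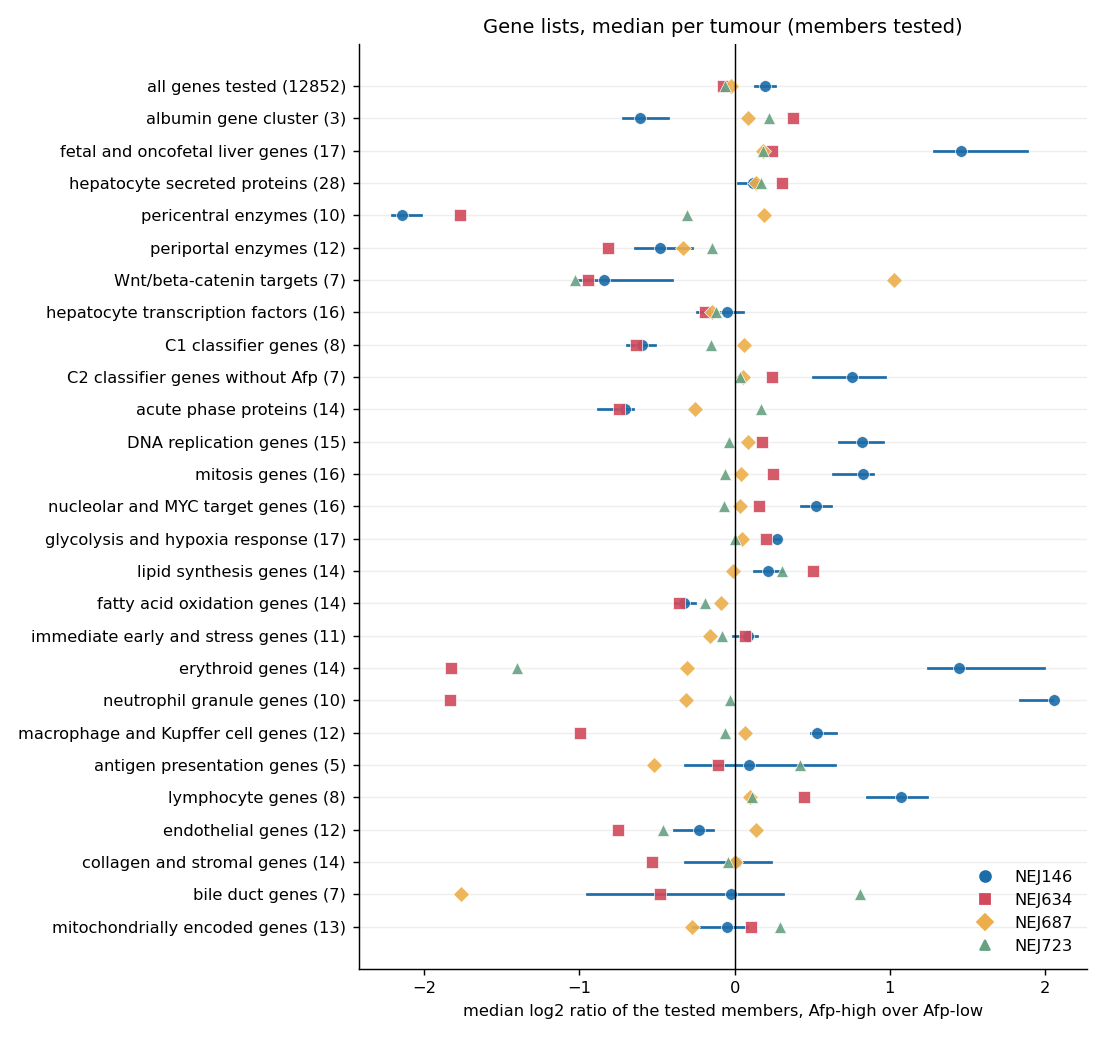
Median log2 ratio of CPM, Afp-high over Afp-low spots, of the tested members (number in brackets) of each gene list and of all 12852 genes tested, with 1 point per tumour; the bar of NEJ146 spans the lowest and highest of its 4 sections. Fetal genes lie to the right in NEJ146 at 1.46, periportal enzymes lie left of 0 in all 4 tumours, and erythroid and neutrophil granule genes lie right of 0 only in NEJ146.

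Genes of fat breakdown and of fat synthesis were counted apart. Of 14 fatty acid oxidation genes, 7 fell and none rose per doubling, where 6.85% of all genes fell. In direction, 9 were lower in all 4 tumours, beside 13.1% of all genes. Of the 7, 2 kept their call without NEJ146 and 1 without NEJ687 or NEJ723, and the medians of the list were -0.32, -0.36, -0.09 and -0.19. Cpt2, which readies fatty acids for oxidation inside mitochondria, had 122 ± 4.06 and 97.0 ± 6.31 CPM in NEJ146, 153 and 129 CPM in NEJ634, 111 and 99.2 CPM in NEJ687, and 84.6 and 75.6 CPM in NEJ723. It fell by 0.14 per doubling (edgeR, SE 0.03, adjusted p = 0.0201), a call lost without NEJ146 (adjusted p = 0.268) or NEJ687 (adjusted p = 0.0779). Of 14 lipid synthesis genes, 7 were higher and 1 lower in all 4 tumours, 1 rose and 2 fell per doubling (without NEJ146, 3 others rose and none fell), and the medians were 0.21, 0.51, -0.01 and 0.30. The 1 that rose was Scd2, the stearoyl-CoA desaturase of fetal and brain tissue, at 181.7 ± 6.04 and 664 ± 50.1 CPM in NEJ146, 472 and 1378 CPM in NEJ634, 654 and 866 CPM in NEJ687, and 469 and 684 CPM in NEJ723. It rose by 0.54 ± 0.09 (SE) per doubling (edgeR, adjusted p = 0.0204), a call lost without NEJ146 (adjusted p = 0.161) or NEJ723 (adjusted p = 0.0514). Scd1, the adult liver form, went the other way in NEJ146, at 446 ± 49.7 and 96.1 ± 19 CPM, and in NEJ687, at 119 and 85.1 CPM, and not in NEJ634, at 190 and 334 CPM, or NEJ723, at 9.28 and 13.9 CPM.

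Many growth genes rose per doubling, with their highest medians in NEJ146. Of 15 DNA replication genes 13 rose, and of 16 mitosis genes 11 rose, with none falling in either list. Without NEJ146 none of either list was called, and without NEJ687, 3 of the 13 and 4 of the 11 kept their call, beside 219 of 649 over all genes that rose. Only 4 and 2 of them, respectively, were higher in all 4 tumours, and the medians were 0.82, 0.18, 0.08 and -0.04 for replication and 0.83, 0.24, 0.04 and -0.06 for mitosis. Mcm6, a subunit of the replicative helicase, had 76.7 ± 9.19 and 140 ± 11.1 CPM in NEJ146, 157 and 177 CPM in NEJ634, 120 and 138 CPM in NEJ687, and 148 and 151 CPM in NEJ723, and rose by 0.18 ± 0.03 (SE, edgeR adjusted p = 0.0109), without a call when NEJ146 (adjusted p = 0.162) or NEJ687 (adjusted p = 0.0533) was left out. Mki67, the proliferation antigen, had 51.7 ± 7.19 and 98.2 ± 8.35 CPM in NEJ146, 151 and 173 CPM in NEJ634, 116 and 105 CPM in NEJ687, and 173 and 152 CPM in NEJ723 (edgeR, adjusted p = 0.0722 per doubling). NEJ687 and NEJ723 were lower on the Afp-high side beyond counting error, with intervals of the log2 ratio of -0.26 to -0.03 and -0.30 to -0.08. Of 16 nucleolar and MYC target genes 3 rose and none fell, with medians of 0.53, 0.15, 0.03 and -0.07, and of 17 glycolysis and hypoxia genes 3 rose and 2 fell. Without NEJ146 none of the former was called and 1 of the latter, the glucose transporter Slc2a1, kept its call.

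Published classes of human hepatoblastoma have classifier genes with mouse counterparts. Of 8 genes of the C1 class, which marks differentiated tumours, Aldh2 and Hpd fell and none rose per doubling, and of 7 genes of the C2 class other than Afp, which marks proliferating tumours, Bub1, Dusp9 and Igsf1 rose and none fell, where 6.85% of all genes fell and 5.05% rose. The C1 medians were -0.59, -0.64, 0.06 and -0.15, and Aldh2 and Hpd were lower in all 4 tumours. The C2 medians were 0.76, 0.24, 0.05 and 0.04, with E2f5 and Igsf1 higher and the ribosomal protein gene Rpl10a lower in all 4 tumours. Without NEJ146 Hpd alone of the 5 kept its call. Hpd, an enzyme of tyrosine breakdown, had 685 ± 65.9 and 378 ± 36.3 CPM in NEJ146, 359 and 223 CPM in NEJ634, 451 and 373 CPM in NEJ687, and 257 and 181 CPM in NEJ723. It fell by 0.32 per doubling (edgeR, SE 0.03, adjusted p = 0.0027), with a call in each fit that left out 1 tumour. Igsf1, a membrane glycoprotein, had 0.497 ± 0.0603 and 1.84 ± 0.515 CPM in NEJ146, 2.17 and 2.89 CPM in NEJ634, 0.951 and 1.70 CPM in NEJ687, and 4.13 and 9.92 CPM in NEJ723.

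Markers of other cell types moved with Afp in some tumours, and their part in the results above was not tested. The summed level of 14 erythroid genes was 3312 ± 1222 CPM in Afp-low and 7785 ± 911 CPM in Afp-high spots of NEJ146, but 1529 and 443 CPM in NEJ634, 12658 and 6529 CPM in NEJ687, and 4523 and 1646 CPM in NEJ723. Red cell genes were thus higher in the Afp-high than in the Afp-low quintile of NEJ146 and lower in the other 3 tumours, and the middle quintiles of NEJ146, given below for Hbb-bs, did not lie between the sides. Only the transferrin receptor Tfrc, which growing cells of other kinds also carry, rose per doubling, a call lost without NEJ146, NEJ687 or NEJ723 (edgeR, adjusted p from 0.072 to 0.157). Without NEJ146, 2 of the 14 erythroid genes fell and none rose. The summed level of 10 neutrophil granule genes was 142 ± 31.2 and 474 ± 54.6 CPM in NEJ146, 1625 and 413 CPM in NEJ634, 1337 and 1002 CPM in NEJ687, and 477 and 423 CPM in NEJ723 with no call by edgeR or DESeq2.

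Macrophage and Kupffer cell genes (12, none called) summed to 1300 ± 166 and 2048 ± 177 CPM in NEJ146 and to 2287 and 1174 CPM in NEJ634, and were nearly even at 2574 and 2723 CPM in NEJ687 and 934 and 936 CPM in NEJ723. Of 8 lymphocyte genes tested, Nkg7, of cytotoxic cells, rose (not without NEJ146 or NEJ687), and none of the 5 antigen presentation genes was called. Among 12 endothelial genes Kdr, the VEGF receptor, fell, and among 14 collagen and stromal genes Col6a1, Dcn and Lum fell. The calls of Kdr (adjusted p from 0.0677 to 0.646) and Dcn (edgeR, adjusted p from 0.0759 to 0.0881) were lost without NEJ146, NEJ687 or NEJ723, that of Col6a1 without NEJ146 (adjusted p = 0.101) and that of Lum without NEJ687 (adjusted p = 0.0523). Dcn, a matrix proteoglycan of fibroblasts, had 302 ± 29.5 and 143 ± 11.2 CPM in NEJ146, 263 and 88.0 CPM in NEJ634, 133 and 83.8 CPM in NEJ687, and 41.7 and 32.9 CPM in NEJ723, while Col3a1, the main collagen of the list, had 178 ± 8.23 and 228 ± 65.6 CPM, 694 and 474 CPM, 143 and 162 CPM, and 123 and 142 CPM in the same order. Of 7 bile duct genes Sox9 fell (not without NEJ146, NEJ687 or NEJ723), and Krt19, the duct keratin, had 15.5 ± 1.39 and 4.25 ± 1.90 CPM in NEJ146, 65.6 and 28.0 CPM in NEJ634, 4.67 and 1.34 CPM in NEJ687, and 2.45 and 9.71 CPM in NEJ723. Of 11 immediate early and stress genes 1 fell and none rose, and of 13 mitochondrially encoded genes 1 rose and none fell per doubling, with none of either list called without NEJ146. Over all genes 5.05% rose and 6.85% fell, so that single calls in such short lists lie near these shares.

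The 3 middle quintiles of spots, which entered neither the fit of the sides nor that per doubling, showed whether a gene went step by step. Over the 5 quintiles, Cyba, Fabp5, Scd2, Serpina1e, Spink1 and Spp2 were higher at each step in all 4 tumours, and Tat was among the genes lower at each step in all 4. Tat, the tyrosine aminotransferase that appears in liver at birth, had 340, 133, 103, 89.6 and 74.0 CPM from the lowest to the highest quintile of NEJ146, and 10.3, 9.12, 6.49, 5.94 and 5.70 CPM in NEJ723. Fabp5, a fatty acid carrier, had 222, 332, 421, 527 and 776 CPM in NEJ146 and 740, 784, 786, 829 and 880 CPM in NEJ723. Most of the drop in Tat lay between the lowest and the next quintile of NEJ146, whereas Fabp5 went up at every step.

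Other genes bent. Dlk1 in NEJ146 had 4.14, 6.47, 9.16, 21.2 and 111 CPM, so most of its difference lay in the highest quintile, and in NEJ634 it had 59.0, 81.5, 129, 157 and 124 CPM. Mug1 had 226, 74.2, 46.3, 39.7 and 34.1 CPM in NEJ146 and 117, 36.2, 17.8, 12.01 and 9.69 CPM in NEJ634. Alb had 15916, 7201, 6369, 6885 and 8874 CPM in NEJ146, highest at the lowest Afp and higher again at the highest, while in NEJ723 it went up at each step from 6018 to 9305 CPM. The adult beta-globin Hbb-bs had 1865, 9960, 7075, 5921 and 4351 CPM in NEJ146, so that the Afp-low quintile alone stood below and the level went down from the next quintile on, as it did over all quintiles of NEJ723 from 2163 to 759 CPM.

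**Figure D4:**
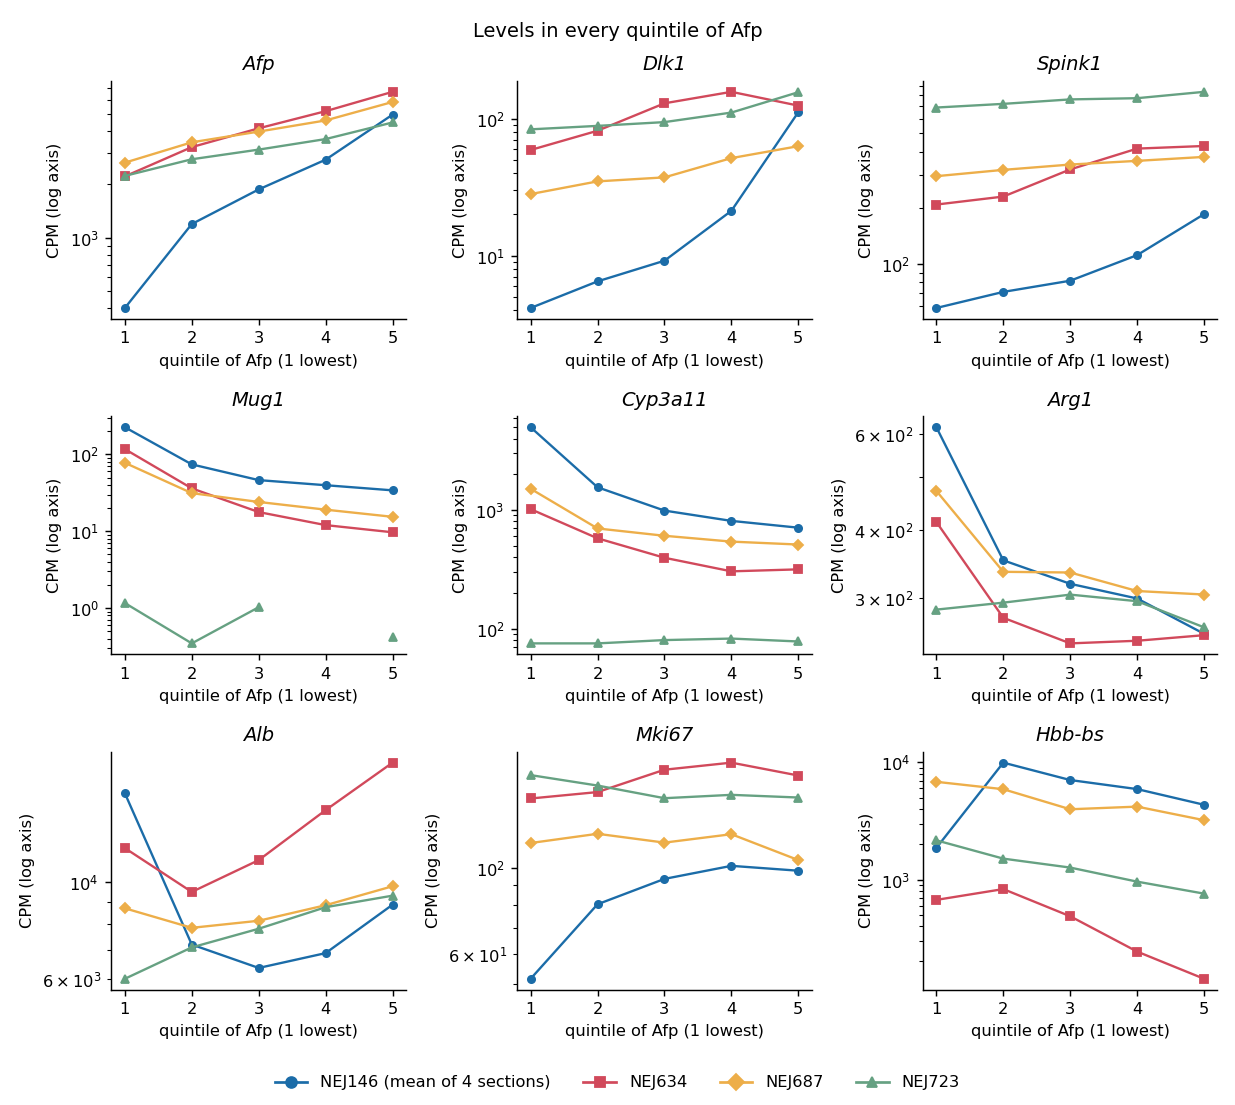
CPM (log axes) of 9 genes in each quintile of spots by Afp, from 1 (lowest) to 5 (highest), in the 4 tumours (lines; NEJ146 is the mean of its 4 sections). Spink1 goes up at each step in all 4 tumours, Mug1 and Cyp3a11 drop most between quintiles 1 and 2 of NEJ146, Hbb-bs of NEJ146 goes from 1865 to 9960 CPM between these quintiles, and a level of 0 (Mug1 in quintile 4 of NEJ723) is not drawn.

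The tumours were unlike in how many genes stood apart between their sides. At least 2-fold higher in Afp-high spots were 707 of 12852 genes (5.5%) in NEJ146, 131 (1.02%) in NEJ634, 76 (0.591%) in NEJ687 and 152 (1.18%) in NEJ723. At least 2-fold lower were 550 (4.28%), 858 (6.68%), 322 (2.51%) and 281 (2.19%). The balance in NEJ146 turned with the scaling. When the log2 ratios of each tumour were centred on the median of all genes tested, which was 0.20 in NEJ146 and between -0.08 and -0.02 in the others, NEJ146 had 467 higher and 750 lower, NEJ634 172 and 750, NEJ687 84 and 309, and NEJ723 173 and 245. Across 8325 genes of at least 10 CPM, the log2 ratios of the sections of NEJ146 correlated with each other at 0.87 to 0.96, with NEJ634 at 0.52 to 0.58 and with NEJ687 at 0.47 to 0.55, while NEJ723 correlated with all others at 0.05 to 0.36 (Pearson's r across genes, which are not independent replicates, given as a description).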

How the data were processed

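Visium slides were read as UMI counts for every gene in every spot, and the tables were used raw, as the authors deposited them. The submitters' processing notes name Space Ranger 1.3 and the build mm10 for the tissues with 1 section, and Cell Ranger 6.0 for NEJ146. Tissue calls and positions were deposited for the tissues with 1 section, and NEJ146 took positions from the same barcodes there.

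Groups were the labelled tissues. Counts were summed per section and side without Afp, filtered (filterByExpr), scaled (TMM) and fitted in edgeR 4.0.16 (R 4.3.3) with the tumour as a block, since both sides come from 1 animal. DESeq2 1.42.0 was an alternative. Sums used Python 3.11.15 and numpy 2.4.6. Log2 ratios per tumour used a prior count of 0.5. Each SE of an edgeR value is its absolute log2 change divided by the square root of the quasi-likelihood F statistic. It restates the test and is no separate measure of precision. The fits were checked on simulated counts with the same change in every tumour, so the check does not cover changes that differ between tumours. Other alternatives changed normalization, filter, side size, spots, ranking and tumours.

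Members and gene lists were chosen with earlier results of these data known. Named genes were the 12 largest each way among called genes with the same sign in all tumours and sections and a mean of at least 10 CPM, all albumin cluster and fetal genes, and up to 4 most abundant members of each other list. Others were named after their values were seen, namely the called genes outside this rule and those with large coefficients or list calls per doubling of Afp. Large coefficients were ranked only among genes called per doubling that met the same limits of sign and CPM. Sections of 1 tumour are not animals, so p-values over 4 tumours measure the spread between these tumours. Spots off tissue, the 3 other tissues and human MYC were not analysed here, and some genes are not reported here.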

Additional observations from a re-analysis of the deposited data

Results flagged for a closer look

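In 3 gene lists every section of NEJ146 went one way and the other 3 tumours the opposite way, and these differences were not tested. NEJ146 also differed in its UMI minimum, its lack of a tissue call and the software named for it. The tumour and its handling therefore cannot be told apart, here or in any other difference between NEJ146 and the rest. The albumin gene cluster (Alb, Afm, Gc) lay lower in NEJ146, by -0.84 in the median log2 ratio of Afp-high over Afp-low spots against the mean of the other tumours. Erythroid genes lay higher in NEJ146 by 2.68 and neutrophil granule genes by 2.71 on the same scale.

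In 3 results 1 of the 4 tumours lay far from the rest, with a gap that took up most of the range over tumours. The gap was 0.954 of the range for the median of the fetal and oncofetal list, where NEJ146 was highest, and 0.910 for the Wnt/beta-catenin targets, where NEJ687 was highest. It was 0.908 for the collagen and stromal genes, where NEJ634 was lowest. With 4 tumours such gaps can arise by chance, and how often was not tested. For NEJ687 and NEJ634, with 1 section each, the tumour and its section cannot be told apart. In the 4 sections of NEJ146 the median of the fetal list ran from 1.28 to 1.89.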

How the results depend on the processing

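The number of genes called between the sides, 10 in the edgeR fit, depended on the settings. It was 272 with DESeq2 (92 higher, 180 lower), 25 without a filter on low counts and 0 with a mean of at least 10 CPM, where 8322 genes were tested. A gene removed by a filter was not tested there, so its missing call is not a failed test. The number called was 27 with deciles, 4 with tertiles and 5 with the higher UMI minimum. With spots thinned to 2000 UMIs it was 37 (2 higher, 35 lower, 0 of them among the 10), with 8832 genes tested. It was 1 with spots ranked by adjacent spots (Cyp2c54) and 43 within spots above the section's median Alb level. Within spots below the section's median of adult globin it was 15, all lower, 7 of them among the 10. Both sides of a tumour come from 1 animal, so the tumour was a block. With no replicate block the fit called 0 genes, with 75 higher and 214 lower at unadjusted p. Leaving out 1 tumour or section gave 0 to 27 calls, 0 without NEJ634, 27 without NEJ687 and 6 without section B of NEJ146. Leaving out all of NEJ146 gave 1, Dlk1, which was higher. The fit on the Afp level, chosen after seeing the data, called 1529 genes, 355 without NEJ146, 633 without NEJ687, 1120 without NEJ723 and 1886 without NEJ634.

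For UMIs per spot in Afp-high against Afp-low spots, the mean log2 ratio of medians, -0.12, was 0.0361 within spots below the section's median of adult globin and 0.0885 without NEJ146. The share of neighbours on the same side kept its sign in all alternatives run. Of 105 genes followed per doubling, 24 kept their direction and their side of the threshold when each tumour was left out in turn, and between the sides too few genes were called for such a count to speak of stability. In NEJ723 most genes called between the sides had 0 or few UMIs, so that their ratios there are imprecise.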

Other observations

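Some genes named after their values were seen rose or fell per doubling of Afp in each fit that left out 1 tumour. Cyba, a subunit of the NADPH oxidase, had 115 ± 19.6 CPM in Afp-low and 390 ± 70.1 CPM in Afp-high spots of NEJ146, 194 and 408 CPM in NEJ634, 353 and 543 CPM in NEJ687, and 280 and 384 CPM in NEJ723 (edgeR, 0.48 ± 0.05 SE per doubling, adjusted p = 0.00269). Apom, an apolipoprotein of HDL, had 363 ± 43.7 and 894 ± 80.0 CPM in NEJ146, 421 and 537 CPM in NEJ634, 1158 and 1363 CPM in NEJ687, and 882 and 906 CPM in NEJ723 (edgeR, 0.28 ± 0.03 SE, adjusted p = 0.00382). Bex3, a small adaptor protein, had 53.3 ± 2.18 and 200 ± 43.9 CPM in NEJ146, 182.4 and 282 CPM in NEJ634, 129 and 152 CPM in NEJ687, and 236 and 259 CPM in NEJ723 (edgeR, 0.44 ± 0.04 SE, adjusted p = 0.00269).

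Onecut2, a liver transcription factor outside the list of such factors, had 13.8 ± 1.01 and 3.35 ± 0.623 CPM in NEJ146, 25.8 and 8.41 CPM in NEJ634, 11.1 and 6.99 CPM in NEJ687, and 1.03 and 0.844 CPM in NEJ723, and fell by 0.67 per doubling (edgeR, SE 0.07, adjusted p = 0.00269). Otc, the mitochondrial enzyme of the urea cycle, had 236 ± 10.6 and 154 ± 19.02 CPM in NEJ146, 183 and 95.5 CPM in NEJ634, 156 and 125 CPM in NEJ687, and 61.3 and 48.4 CPM in NEJ723, and fell by 0.28 (edgeR, SE 0.05, adjusted p = 0.0121). Grb10, an imprinted inhibitor of growth factor signalling, rose by 0.37 ± 0.04 (SE) per doubling (edgeR, adjusted p = 0.00391), with 71.0 ± 6.74 and 235 ± 20.3 CPM in NEJ146, 225 and 286 CPM in NEJ634, 221 and 276 CPM in NEJ687, and 207 and 209 CPM in NEJ723. Without NEJ146 the coefficient of Otc was -0.42, and that of Grb10 was 0.23 with its call lost (adjusted p = 0.0603).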
